A study of Bos taurus with 24 samples.

Results

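The miR-29 family was followed in small RNA libraries of the mammary gland of lactating cows. Its rows were taken from the deposited tables by exact name, and 6 of the 796 miRNAs listed in each table belong to it: bta-miR-29a, bta-miR-29b, bta-miR-29c, bta-miR-29d-3p, bta-miR-29d-5p and bta-miR-29e. Multiparous midlactation Holstein (HOLS) and Montbéliarde (MONT) cows, which are dairy breeds, were biopsied in the mammary gland at the end of a control period with free access to feed (CONT) and again after 6 days of feed restriction (REST). The labels set the restriction at 60% of the net energy of lactation calculated before it, and the study's methods give another share. The 4 groups hold 5 HOLS cows and 6 MONT cows, each with 1 CONT and 1 REST library, which makes 22 libraries. Every cow served as its own control, and no cow stayed on free feed through both biopsies, so restriction and the passing of 6 days cannot be told apart.

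The mature miR-29 strands come from the 3' arm of their hairpins and share a seed, the short stretch near the 5' end of a miRNA that pairs with target mRNAs. They are known as repressors of collagens and other genes of the extracellular matrix and of the DNA methyltransferases that set new methylation marks. In mammary epithelial cells of dairy cows they have been linked through those enzymes to the methylation of milk genes. The 5' arm of a hairpin gives another sequence with other targets, and it is usually the scarcer strand. For miR-29d both arms are listed, whereas the rows of miR-29a, miR-29b, miR-29c and miR-29e carry no arm and were taken as the 3p strand.

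Abundance differed between the members by orders of magnitude. Levels are given as CPM, the counts of a miRNA per 1000000 counts of its library, scaled with TMM factors over the 22 libraries, and 1 count was worth 0.0516 to 0.172 CPM. MiR-29a was the most abundant member, with a mean of 1038 CPM over the 22 libraries, which placed it 56th of all miRNAs. MiR-29c followed with 500.4 CPM and miR-29b with 68.0 CPM. Together the 3p members made up 0.161% of all counts. MiR-29a held 64.5% of that sum, miR-29c 31.1% and miR-29b 4.23%. The sum itself lay between 1329 and 2016 CPM in every library and was 1717 ± 156 (SD, n = 5) in HOLS CONT, 1678 ± 271 (n = 5) in HOLS REST, 1517 ± 223 (n = 6) in MONT CONT and 1553 ± 123 (n = 6) in MONT REST. These ranges overlapped between all groups.

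MiR-29d was scarce on both arms, and the arm labelled 5p was the more abundant one. MiR-29d-5p had a mean of 5.60 CPM, from 24 to 123 counts in a library. MiR-29d-3p had 2.35 CPM, from 6 to 75 counts. The values of miR-29d therefore carry more counting error than those of miR-29a, for which 5582 to 24845 counts were recorded. MiR-29e had 0 to 2 counts and was listed at 0 in 12 of the 22 libraries. It did not pass the filter on low counts and was not tested, and a library with 0 counts allows a level of up to 3 counts. The other 5 members were tested in each comparison.

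In the bovine RefSeq annotation MIR29A neighbours MIR29B-1, MIR29B-2 neighbours MIR29C and MIR29D neighbours MIR29E, with no gene listed between the members of each pair. The last 2 pairs lie on the same chromosome, with 2 listed genes between MIR29C and MIR29E. The tables list a single miR-29b row, so counts from its 2 gene copies cannot be told apart. Members with closely similar sequences may also share reads, and how such reads were assigned is not described.

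**Figure D1:**
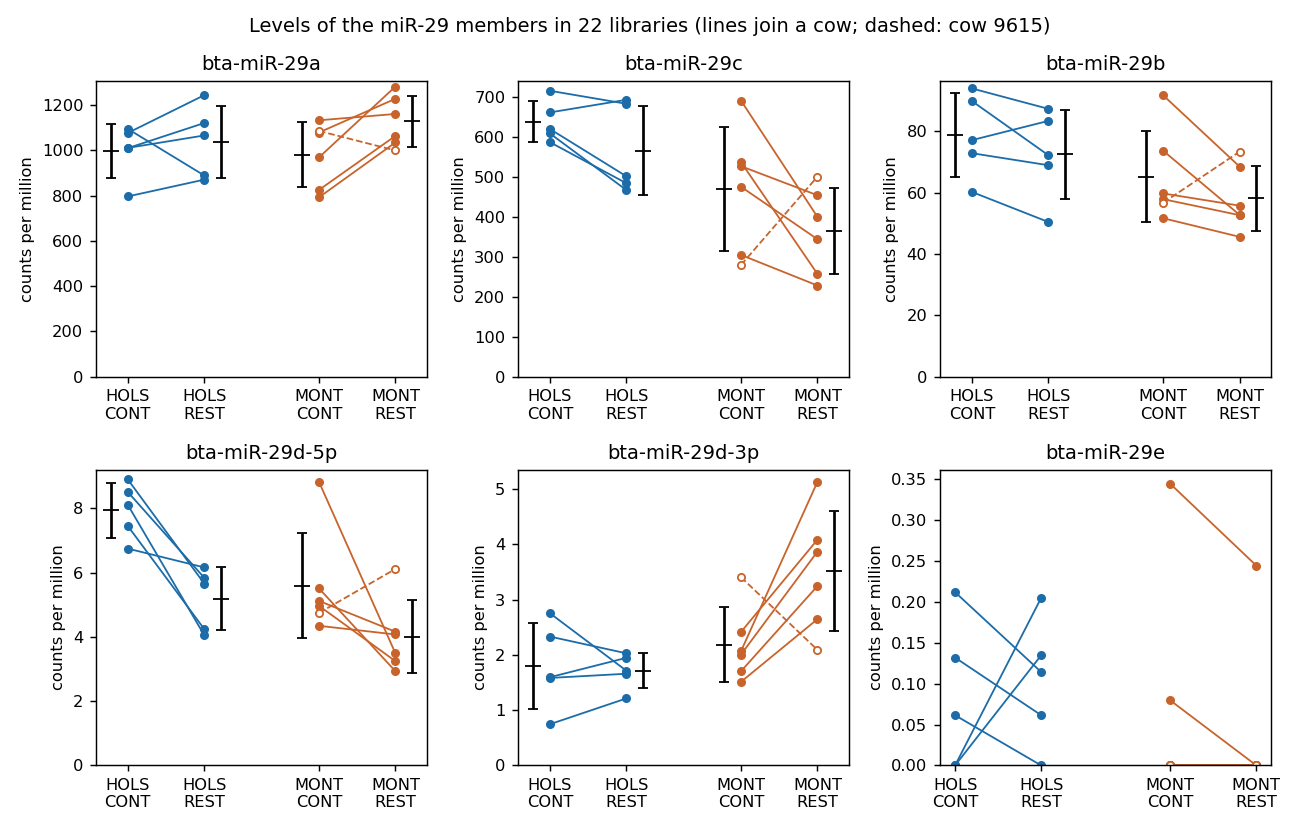
Level of each member (CPM, linear axes from 0) in the 22 libraries, by breed and period. Lines join the libraries of a cow, the dashed line with open points is MONT cow 9615, and black bars give the mean and SD except for miR-29e, for which 0 to 2 counts were recorded. All 5 HOLS lines of miR-29d-5p go down, and 5 of 6 MONT lines of miR-29d-3p go up.

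The libraries held 6087865 to 18913916 counts. The study reports more short and adapter reads in its MONT than in its HOLS libraries. It names this lower quality as a possible reason for the lack of called miRNAs in MONT. The study also proposes a smaller change of energy balance in MONT, and reduced genetic variation in HOLS. Its MONT cows had a lower energy balance than its HOLS cows before restriction. Breed, library quality and energy balance cannot be told apart in these data. One MONT cow stood apart. When the mean of its period was taken off each library, the paired libraries correlated with r = 0.0711 to 0.757 in the other cows and with r = -0.327 in cow 9615, across miRNAs, which are not independent replicates. Which of its 2 libraries is CONT and which is REST rests on the labels alone and was not tested. Values are given with and without this cow where a result rests on it. A biopsy of this tissue holds epithelium, stroma, vessels and blood, and in such bulk samples fewer cells of a type and less RNA per cell cannot be told apart. All 25 markers of the 5 cell types considered were in the tables, and none was at 0 throughout. The summed level of the 9 epithelial markers lay between 38940 and 50960 CPM in HOLS CONT, 26980 and 57660 in HOLS REST, 20310 and 51630 in MONT CONT, and 14720 and 36500 in MONT REST.

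In HOLS, miR-29d-5p was the member whose CONT and REST values did not overlap. Its level in CONT was 8.51 CPM in cow 1165, 8.90 in cow 8200, 6.75 in cow 9195, 8.11 in cow 1155 and 7.45 in cow 2182. In REST the same cows had 5.84, 5.66, 6.16, 4.05 and 4.24 CPM. It was lower in REST in 5 of 5 cows, and the highest REST value lay under the lowest CONT value. Non-overlap of the groups was seen in 7.75% of all miRNAs tested in HOLS, and in 1 of the 5 members tested. The log2 fold change was -0.56 (SE 0.16), and the adjusted p was 0.0738 by the quasi-likelihood test of edgeR over all 374 miRNAs tested, without the cow in the model. With the cow as a block, which uses the pairing of the libraries, the log2 fold change was -0.57 (SE 0.16) and the adjusted p 0.0386.

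The call of miR-29d-5p thus depended on the fit. Without the block 9 of 374 miRNAs (2.41%) passed the threshold of 0.05 in HOLS, all of them lower in REST, and 0 of the 5 members did, with miR-29d-5p the 1 member whose unadjusted p lay under 0.05. With the block 61 of 374 passed (16.3%), and 1 of the 5 members did. DESeq2 without a block called 26 of 754 miRNAs (3.45%), miR-29d-5p among them with an adjusted p of 0.0352. The 754 were not reduced by the filter on low counts used with edgeR, so this share and those of edgeR have unlike bases. When 1 cow was left out of the blocked fit, the adjusted p was 0.124 without cow 1155, 0.0877 without cow 2182, 0.0699 without cow 1165, 0.0613 without cow 8200 and 0.0175 without cow 9195. The log2 fold change stayed between -0.48 and -0.75.

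The 3p members showed no call in HOLS under either fit. MiR-29a was 1010, 1077, 1095, 1011 and 796.5 CPM in CONT and 1121, 1244, 889.2, 1066 and 870.8 in REST, in the order of cows given above. It was higher in 4 of 5 cows, with a log2 fold change of 0.11 (SE 0.12, edgeR adjusted p = 0.627) that turned to -0.06 when libraries were scaled by their size alone. MiR-29c was 660.6, 714.8, 586.4, 619.4 and 608.2 CPM in CONT and 692.2, 682.3, 483.7, 501.1 and 466.7 in REST. It was lower in 4 of 5 cows, with a log2 fold change of -0.12 (SE 0.12, edgeR adjusted p = 0.572). Its REST values fell into a higher pair and a lower 3, and they overlapped with CONT.

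MiR-29b, which shares its gene neighbourhoods with both of these, ranged from 60.2 to 94.0 CPM in HOLS CONT and from 50.4 to 87.4 in REST. Its log2 fold change was -0.07 (SE 0.16, edgeR adjusted p = 0.861). MiR-29d-3p was 1.60, 2.76, 2.33, 1.58 and 0.745 CPM in CONT and 1.95, 1.72, 2.03, 1.66 and 1.21 in REST. Its groups overlapped fully, and its log2 fold change of -0.04 (SE 0.29, edgeR adjusted p = 0.969) was 0.00 with the cow as a block. The SE of this scarce strand leaves room for changes in either direction that were not detectable at this depth.

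In MONT no member passed the threshold. Neither did any other miRNA in this breed, with 0 of 349 (0.0%) called by edgeR without and with the block, although 47 and 52 had an unadjusted p under 0.05, and 0 by DESeq2, with 56 under 0.05. The lowest adjusted p among the members was that of miR-29d-3p. Its level ran from 1.51 over a median of 2.04 to 3.41 CPM in CONT, and from 2.09 over 3.56 to 5.13 CPM in REST. It was higher in REST in 5 of 6 cows, and the groups overlapped through cow 9615, which had the highest CONT value and the lowest REST value. The log2 fold change was 0.70 (SE 0.26), with an edgeR adjusted p of 0.314.

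MiR-29d-5p ran from 4.35 over a median of 5.04 to 8.83 CPM in MONT CONT, and from 2.93 over 3.78 to 6.11 CPM in REST. It was lower in REST in 5 of 6 cows, with a log2 fold change of -0.49 (SE 0.25, edgeR adjusted p = 0.405). Without cow 2614 it was -0.22 (edgeR adjusted p = 0.874). Cow 2614 had the highest CONT value, and cow 9615, the exception in direction, had the highest REST value. MiR-29c ran from 279.2 over 500.6 to 690.2 CPM in CONT, and from 228.0 over 371.7 to 500.2 CPM in REST, with a log2 fold change of -0.37 (SE 0.25, edgeR adjusted p = 0.448), and of -0.20 without cow 2614 (edgeR adjusted p = 0.874). It was lower in 5 of 6 cows, and again cow 9615 had the lowest CONT and the highest REST value.

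The abundant miR-29a ran from 792.4 over 1024 to 1133 CPM in MONT CONT, and from 999.6 over 1112 to 1282 CPM in REST, with a log2 fold change of 0.21 (SE 0.13, edgeR adjusted p = 0.437). MiR-29b ran from 51.7 over 58.8 to 91.8 CPM in CONT, and from 45.6 over 54.3 to 73.4 CPM in REST, with a log2 fold change of -0.17 (SE 0.18, edgeR adjusted p = 0.632), which was -0.05 without cow 2614. MiR-29a was higher in 5 of 6 cows and miR-29b lower in 5 of 6, and cow 9615 was the exception in both.

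**Figure D2:**
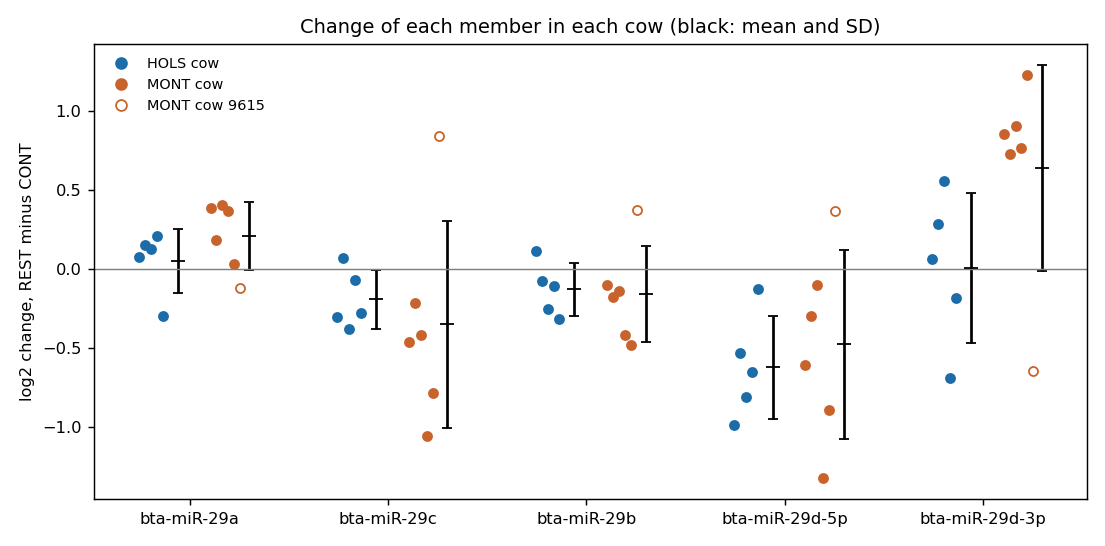
Change of each member from CONT to REST in each cow, as the log2 of the ratio of its levels. Points are cows, blue for HOLS and orange for MONT, the open point is MONT cow 9615, and black bars give the mean and SD. For each of the 5 members the open point lies on the other side of 0 from the other 5 MONT cows.

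Cow 9615 thus went against the other 5 MONT cows in all 5 members tested. Without it, 46 of 358 miRNAs (12.8%) passed the threshold in MONT, and 1 of the 5 members did. This was miR-29d-3p, with a log2 fold change of 0.96 (SE 0.25, edgeR adjusted p = 0.0346). With the cow as a block and without cow 9615, 140 of 358 miRNAs passed (39.1%), among them 3 of the 5 members. MiR-29d-3p then rose by a log2 fold change of 0.93 (SE 0.21, edgeR adjusted p = 0.00654), miR-29c had -0.60 (SE 0.14, edgeR adjusted p = 0.00700) and miR-29d-5p had -0.66 (SE 0.24, edgeR adjusted p = 0.0484). MiR-29a and miR-29b stayed above the threshold in that fit, with edgeR adjusted p of 0.0691 and 0.0967. The share called over all miRNAs moved with this cow as well, from 0.0% to 39.1%.

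Summed levels of cell markers are given for the same cows. In the 5 other MONT cows the summed level of the 9 epithelial markers was lower in REST in all 5, by -0.08 to -0.97 on the log2 scale, and in cow 9615 it was higher by 0.81. The sum of the 6 fibroblast and smooth muscle markers was higher in 4 of these 5 cows and differed by -0.02 in cow 9615. The sum of the 5 leukocyte markers was higher in all 5 and lower in cow 9615, by -0.58 on the log2 scale. This sum follows its abundant members. Over all 6 MONT cows, 4 of the 5 leukocyte markers had a log2 fold change above 0, and miR-223 had -1.30 (edgeR adjusted p = 0.362). The sum of the 3 red blood cell markers was lower in 4 of these 5 cows, down to -1.04, and higher by 0.75 in cow 9615. The sum of the 2 endothelial markers was lower in 4 of these 5 cows, down to -0.61, and higher by 0.37 in cow 9615. The part of these shifts in the values of the miR-29 members was not tested.

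The difference between the breeds in the response was tested in a model of all 22 libraries, as the MONT change minus the HOLS change. No member passed, and neither did any other of the 388 miRNAs tested (0.0%), with 3 at an unadjusted p under 0.05 by edgeR and 0 passing by DESeq2, with 5 under 0.05. The change of miR-29d-3p was larger in MONT than in HOLS by 0.78 on the log2 scale (SE 0.40, edgeR adjusted p = 0.991). Without cow 9615 it was larger by 1.04 (SE 0.38, edgeR adjusted p = 0.391). For miR-29d-5p the difference was 0.12 (SE 0.29, edgeR adjusted p = 0.991), for miR-29a 0.15 (SE 0.18), for miR-29b -0.05 (SE 0.25) and for miR-29c -0.19 (SE 0.31). With the cow as a block and without cow 9615, 23 of 388 miRNAs passed (5.93%) and 0 of the 5 members did. The difference was then 0.98 for miR-29d-3p (SE 0.30, edgeR adjusted p = 0.0608), -0.39 for miR-29c (SE 0.17, edgeR adjusted p = 0.187), 0.23 for miR-29a, -0.13 for miR-29b and -0.02 for miR-29d-5p. No member passed the test of a difference between the breeds in these 3 fits.

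Between the breeds within a period, miR-29d-3p differed in REST, with breed, library quality and energy balance not told apart. In HOLS REST miR-29d-3p had at most 2.03 CPM and in MONT REST at least 2.09, so that the groups did not overlap, as for 9.02% of the miRNAs tested in this comparison. The values at this edge were those of HOLS cow 9195, with 27 counts, and MONT cow 9615, with 13 counts. In the latter library 1 count was worth 0.161 CPM, more than the gap, so 1 count fewer would have made the groups overlap. MiR-29d-3p was higher in MONT by 1.04 on the log2 scale (SE 0.28), with an edgeR adjusted p of 0.0192. It was the 1 member of 5 that passed, beside 53 of all 388 miRNAs (13.7%). Leaving out 1 cow raised the edgeR adjusted p above the threshold in 4 cases, to 0.0750 without HOLS cow 1155, 0.0670 without HOLS cow 1165, 0.0658 without HOLS cow 8200 and 0.0544 without MONT cow 1652. In CONT the same strand was higher in MONT by 0.26 (SE 0.29, edgeR adjusted p = 0.651).

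For miR-29c the log2 difference of MONT to HOLS was -0.64 in REST (SE 0.22, edgeR adjusted p = 0.0556) and -0.45 in CONT (SE 0.22, edgeR adjusted p = 0.227). Neither passed. On leaving out 1 cow the edgeR adjusted p of the REST value ran from 0.108 without HOLS cow 1165 to 0.00549 without MONT cow 9615, where the difference was -0.74 (SE 0.18) and 101 of 388 miRNAs passed (26.0%). It was past the threshold with DESeq2 (adjusted p = 0.0255), which called 85 miRNAs. In CONT 29 of 388 miRNAs passed (7.47%) and 0 of the 5 members did, with miR-29d-5p the 1 member at an unadjusted p under 0.05. For miR-29d-5p the difference in CONT was -0.50 (SE 0.21, edgeR adjusted p = 0.167). Without MONT cow 2614, whose CONT library had the highest level of this strand in MONT, the difference was -0.66 (edgeR adjusted p = 0.0369), and 31 of 386 miRNAs passed (8.03%).

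The remaining values between the breeds did not pass the threshold. MiR-29a differed by -0.03 (SE 0.13) in CONT, a value that turned to 0.0054 with the size factors of DESeq2, and by 0.12 (SE 0.13) in REST. MiR-29b differed by -0.27 (SE 0.17) in CONT and -0.32 (SE 0.17) in REST, and miR-29d-5p by -0.38 (SE 0.21) in REST. The edgeR adjusted p of these 5 values lay between 0.196 and 0.934, and the values of miR-29b and miR-29d-5p were 1 to 2 SE from 0.

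**Figure D3:**
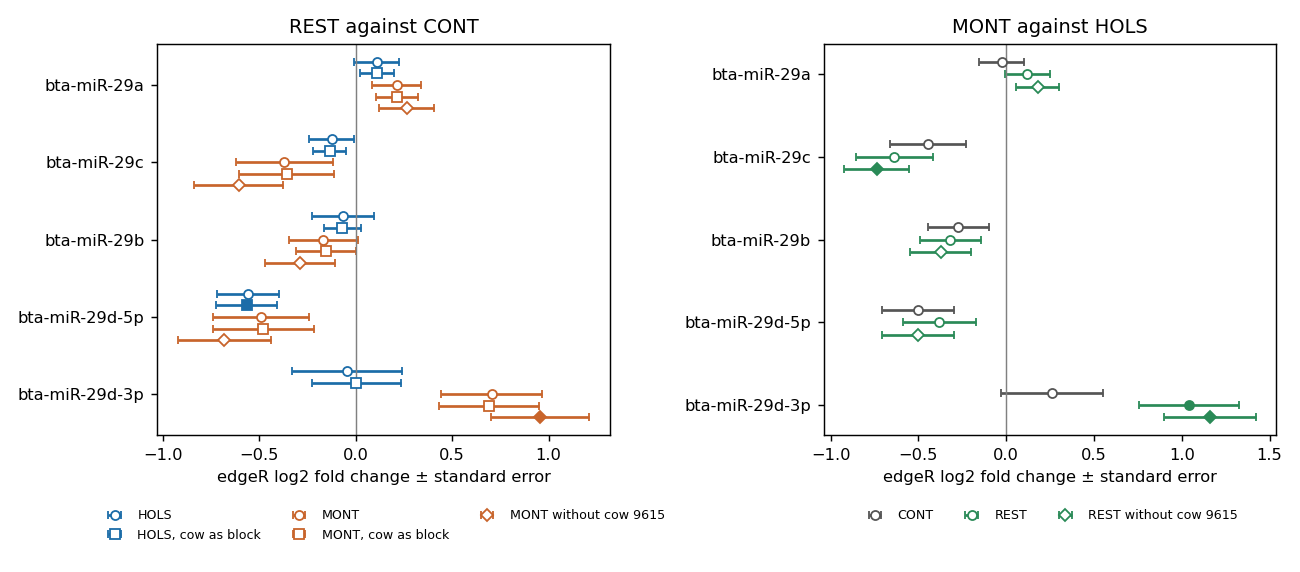
Log2 fold changes of edgeR with standard errors for the 5 members tested, for REST against CONT within each breed (left) and MONT against HOLS within each period (right). Filled symbols have an adjusted p of at most 0.05 and open ones do not, squares have the cow as a block and diamonds leave out cow 9615. MiR-29d-3p in REST (1.04) is the filled circle.

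Cell markers were compared between the breeds in REST in the same model, where 13.7% of all miRNAs tested passed. Of the 6 fibroblast and smooth muscle markers, 3 passed (miR-199a-3p, miR-199a-5p and miR-214), all higher in MONT, with a median log2 difference of 0.77 over the list beside 0.06 over all miRNAs tested. Of the 9 epithelial markers, 1 passed in each direction (miR-141 and miR-205), with a median of -0.32. Of the 2 endothelial markers miR-126-3p was lower in MONT, and no leukocyte or red blood cell marker passed. The part of these differences in those of miR-29d-3p and miR-29c was not tested.

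The ratio of the 2 arms of miR-29d needs no scaling between libraries, since both are counted in the same one. The log2 ratio of miR-29d-3p to miR-29d-5p, with 1 added to each count, was -2.19 ± 0.64 (SD, n = 5) in HOLS CONT, -1.56 ± 0.19 (n = 5) in HOLS REST, -1.32 ± 0.67 (n = 6) in MONT CONT and -0.20 ± 0.74 (n = 6) in MONT REST. The 5p arm was in excess in 5 of 5 HOLS CONT, 5 of 5 HOLS REST, 6 of 6 MONT CONT and 4 of 6 MONT REST libraries. In MONT REST the arms were equal in cow 1613 and the 3p arm was in excess in cow 5663. Counting error alone gives this ratio an SD of 0.23 to 0.62 in a library, with a median of 0.36, and the spread within groups was 0.60.

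From CONT to REST the ratio moved towards the 3p arm. The mean change of the log2 ratio over the 11 cows was 0.90 ± 0.95 (SD), upward in 8 of 11, with p = 0.0205 in a two-sided exact permutation test that flips the sign of each cow's change. The change was 1.05, 0.82, 1.37, -0.04 and -0.06 in HOLS cows 1155, 1165, 2182, 8200 and 9195. In MONT cows 1613, 1640, 1652, 2614 and 5663 it was 1.47, 1.03, 1.01, 2.09 and 2.13, and in cow 9615 it was -1.01. Within HOLS alone the mean was 0.63 ± 0.65, upward in 3 of 5 cows, with an exact p of 0.25 where 0.0625 is the smallest possible. Within MONT it was 1.12 ± 1.15, upward in 5 of 6 cows, with an exact p of 0.0938 where 0.0313 is the smallest possible. Without cow 9615 the mean over 10 cows was 1.09 ± 0.74 and the exact p 0.00781.

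The breeds were not shown to differ in this change, which was larger in MONT by 0.49 (exact permutation p = 0.418, two-sided). In level, the log2 ratio was higher in MONT than in HOLS by 1.36 in REST (exact permutation p = 0.00649) and by 0.87 in CONT (exact permutation p = 0.0563).

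Other hairpins with both arms in the tables give the background for this shift. Of 25 such pairs kept in both breeds, 10 (40.0%) had an unadjusted exact p of at most 0.05 for the change of their ratio, and 7 had an adjusted p of at most 0.05 over the 25 pairs. MiR-29d was not among the 7, with an exact permutation p of 0.0641 after adjustment. Its mean change of 0.90 was the largest in size of the 25, whose median size was 0.21 and whose median change was -0.03. The next largest were those of let-7a and miR-193a, at -0.79 and -0.71. The size for miR-29d carries counting error, with 6 to 75 counts of its 3p arm in a library. It was smaller with a pseudocount of 10.

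**Figure D4:**
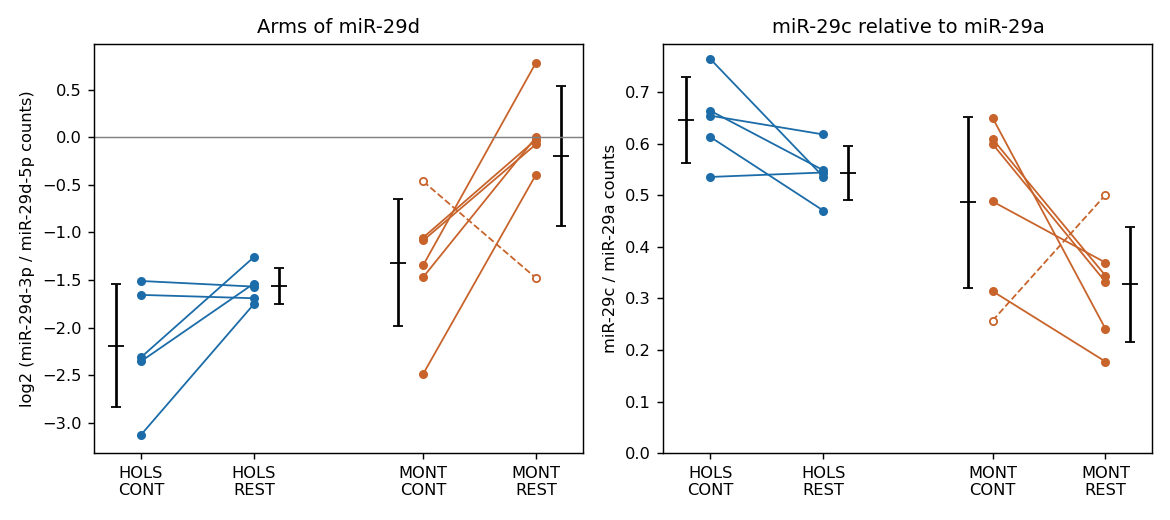
Left, log2 ratio of the counts of miR-29d-3p to miR-29d-5p, with the line at 0 for equal arms, and right, ratio of the counts of miR-29c to miR-29a, in the 22 libraries. Lines join the libraries of a cow, dashed for MONT cow 9615, and black bars give the mean and SD. The left ratio goes up in 8 of 11 cows, and the right one goes down in 9 of 11.

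Among the abundant 3p members the ratio of miR-29c to miR-29a was followed in the same cows. Scaling between libraries does not enter this ratio either. It was 0.646 ± 0.083 (SD, n = 5) in HOLS CONT and 0.543 ± 0.052 (n = 5) in HOLS REST, and 0.486 ± 0.165 (n = 6) in MONT CONT and 0.328 ± 0.111 (n = 6) in MONT REST. On the log2 scale its mean change over the 11 cows was -0.42 ± 0.61 (exact permutation p = 0.0537, two-sided). Without cow 9615 it was -0.56 ± 0.43, down in 9 of 10 cows (exact permutation p = 0.00391), and with the libraries taken as unpaired within a breed the exact permutation p over all cows was 0.0280. Without cow 2614 it was -0.32 ± 0.54 (exact permutation p = 0.107). This ratio was singled out after the values were seen, from the 10 pairs of the 5 members tested. Over those pairs none had an adjusted exact p of at most 0.05 with all cows, and that of miR-29c to miR-29a was 0.0895.

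The members also differed in how steady they were among cows of a group. The SD of the log2 CPM within groups was 0.19 for miR-29a, 0.28 for miR-29b, 0.30 for miR-29d-5p, 0.37 for miR-29c and 0.47 for miR-29d-3p, beside a median of 0.42 over the 388 miRNAs tested. MiR-29a was the 33rd steadiest of these. The within-group SD of the log2 ratio was 0.60 between the 2 scarce strands of miR-29d, 0.31 between miR-29a and miR-29b, and 0.40 between miR-29a and miR-29c.

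Likeness was measured by that same SD of the log2 ratio within the 4 groups over the 22 libraries. It is small for miRNAs that moved together from cow to cow, and also for miRNAs that were both steady. The measure does not tell these apart, and miR-29a itself had an SD of the log2 CPM of 0.19. The closest to miR-29a were miR-27a-3p (0.16), miR-25 (0.17) and miR-16b (0.19). The closest to miR-29c were miR-429 (0.18), miR-186 (0.19) and miR-33a (0.20), of which miR-429 is one of the epithelial markers above. The closest to miR-29b were miR-17-5p (0.23), miR-152 (0.24) and miR-148c (0.24), and the last 2 had nearly the same mean level, 151.5 and 151.4 CPM. MiR-152 is one of the miRNAs known to target a DNA methyltransferase.

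The likeness of the arms of miR-29d was to different miRNAs. MiR-29d-5p was closest to miR-30b-5p (0.24), miR-19b (0.24) and miR-324 (0.26), while miR-29d-3p stood at rank 258. The other members stood nearer to miR-29d-5p: miR-29b (0.30, rank 17), miR-29c (0.34, rank 48) and miR-29a (0.38, rank 74). MiR-29d-3p was closest to miR-99a-5p (0.34), miR-125b (0.35) and miR-342 (0.36). Of the members, miR-29a came nearest to miR-29d-3p (0.36, rank 5), and miR-29c (0.61, rank 186) and miR-29d-5p (0.60, rank 173) stood far from it. All these ratios share the library and its depth, and for miR-29d-3p the counting error is large.

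Other miRNAs, from lists on DNA methyltransferases and on fibrosis, are given as counts, and whether they share targets with miR-29 was not examined. Of 7 known to target DNA methyltransferases, 0 passed in either breed without a block, where their median log2 fold change was 0.25 in HOLS and 0.15 in MONT, beside 0.02 and -0.01 over all miRNAs tested. With the cow as a block, 16.3% of all miRNAs tested passed in HOLS. There 2 of the 7 rose (miR-143 and miR-342), and none passed in MONT. Of 12 known from fibrosis and TGF-beta signalling, 0 passed without a block, with medians of 0.11 in HOLS and -0.04 in MONT. With the block, 1 rose in HOLS (miR-145) and 2 fell (miR-200b and miR-200c), and again none passed in MONT.

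For HOLS, the cell markers are given beside the value of miR-29d-5p. With the block 61 of all 374 miRNAs tested passed in HOLS (16.3%). Of the 9 epithelial markers 3 fell (miR-200b, miR-200c and miR-429), and 3 of the 9 had a log2 fold change above 0. The median over this list was -0.12, beside 0.01 over all miRNAs. Of the fibroblast and smooth muscle markers 2 of 6 rose (miR-143 and miR-145), of the endothelial markers 1 of 2 (miR-126-3p), of the leukocyte markers 2 of 5 (miR-142-5p and miR-146a) and of the red blood cell markers 1 of 3 (miR-486). The other 2 red blood cell markers, miR-144 and miR-451, had log2 fold changes of -0.13 and -0.14 that did not pass, so that the median of that list was -0.13. Their part in the value of miR-29d-5p was not tested.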

How the data were processed

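Small RNA libraries (TruSeq) of mammary gland biopsies were sequenced by the authors, who kept clipped reads of 18 to 25 nt and quantified and annotated them with ncPRO-seq and miRDeep2. The deposited counts are whole numbers per miRNA without normalization. The tables also hold the authors' normalized counts, fold changes and p-values from DESeq2 (1.18.1, per the submitters' processing notes), which were not used. The 2 libraries of a HOLS cow named in the labels were not analysed here.

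Counts were tested with edgeR 4.0.16 (R 4.3.3): TMM scaling, the quasi-likelihood F test after filterByExpr (minimum count 10), and adjustment by Benjamini-Hochberg over all miRNAs tested, with a threshold of 0.05. REST and CONT were compared within a breed, and the breeds in a model of 4 groups over all 22 libraries. The SE of a log2 fold change was taken as its size over the root of F. Alternatives were DESeq2 1.42.0, its size factors in edgeR, scaling by library size alone, no filter, a threshold of 0.10, the cow as a block, and leaving out each cow, the last also with the block, which, like the ratios between members other than that of the arms of miR-29d, was chosen after seeing the data. Ratios of 2 miRNAs were compared with a pseudocount of 1 by two-sided exact permutation tests. The edgeR and DESeq2 fits were tested on simulated data, with changes larger than those of the members and the same spread in each data set. The fitted biological coefficient of variation was 0.227 in HOLS, 0.362 in MONT and 0.320 over both breeds. The simulated spread lay under the last 2, so the simulation does not show how the fits do at the spread of those data. The tests of ratios were not simulated.

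The cow number in the labels pairs the libraries. Once period means were taken off, paired libraries correlated with r = 0.250 to 0.533 in HOLS and -0.327 to 0.757 in MONT. The study's methods name no block for the miRNA counts, so the fit without it was the main one.

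The totals of 6087865 to 18913916 counts set the precision, and 1 count was worth 0.0516 to 0.172 CPM. Counting error is the only error that a single library shows, and PCR reads without molecular identifiers are not independent molecules. P-values of the fit without a block rest on the spread between cows within a group. For REST against CONT, that fit treats the paired libraries of a cow as independent. Blocked fits, and permutation tests that flip signs, rest instead on how the change within a cow varied from cow to cow.

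All 6 members were described. For each member tested, the 3 miRNAs with the smallest within-group SD of the log2 ratio to it were named, and the lists of markers and of other miRNAs were given as counts, with at most 4 named. The members and lists were chosen with earlier results of these data known. No sequences are printed, so miRNAs that share the seed of a member were not looked for. Gene neighbours were read from a RefSeq annotation (ARS-UCD2.0), whose coordinates were not used.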

Additional observations from a re-analysis of the deposited data

Results flagged for a closer look

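MiR-29a in HOLS CONT was 796.5 CPM in cow 2182, while the other 4 cows had 1010 to 1095 CPM, a gap wider than Dixon's 95% limit allows in a group of 5.

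MiR-29d-5p in MONT CONT was 8.83 CPM in cow 2614, while the other 5 cows had 4.35 to 5.51 CPM, again beyond that limit for a group of 6. The difference of MONT to HOLS in CONT for this strand was -0.50 on the log2 scale with this cow and -0.66 without it, and the MONT change from CONT to REST was -0.49 with it and -0.22 without it. These were 2 such values in 32 groups examined, and chance at 1 in 20 gives 1.6.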

How the results depend on the processing

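In HOLS 0 members were called, and 1, miR-29d-5p, with a threshold of 0.10, DESeq2, scaling by library size alone or the cow as a replicate block. Leaving out 1 cow gave 0 to 1 with and without the block. In MONT the count of 0 went from 0 to 1 on leaving out 1 cow and from 0 to 3 with the block as well. Between the breeds in CONT it went from 0 to 1. In REST it was 1, and 2 with a threshold of 0.10, DESeq2, its size factors in edgeR or no filter, and it went from 0 to 2 on leaving out 1 cow. The replicate block changed no other call of a member. The log2 change of the ratio of the arms of miR-29d had an unadjusted exact permutation p of at most 0.05 under each alternative run, at 0.69 with a pseudocount of 10, 0.90 with libraries unpaired and 0.77 to 1.09 on leaving out 1 cow. Adjusted over the 25 arm pairs, the exact permutation p of the main value was 0.0641. The sum of the 3p members over miR-29d-5p, at 0.55, also passed unadjusted. That is another ratio, since miR-29d-3p made up 0.146% of the sum.

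Directions turned only for values near 0 that passed no threshold. In HOLS miR-29a was -0.059 on the log2 scale with library size alone, a scaling that also moved the median of all miRNAs from 0.02 to -0.15. MiR-29d-3p was 0.0037 with the block, -0.10 to 0.20 with the block on leaving out 1 cow and -0.15 to 0.13 without the block. The difference between the breeds in the response of miR-29b was 0.00074 with library size alone and -0.16 to 0.020 on leaving out 1 cow (-0.15 to 0.036 with the block), and that of miR-29d-5p was -0.084 to 0.32 (-0.065 to 0.31 with the block). The difference of miR-29a in CONT was 0.0054 with the size factors of DESeq2 and -0.071 to 0.046 on leaving out 1 cow. Causes were not tested. Among single members and the ratio of miR-29c to miR-29a, 415 values under an alternative kept their direction and their side of the threshold, 18 passed it newly and 4 lost it, and 21 turned. Depth limits miR-29d-3p, with 6 to 75 counts, and miR-29e, with 0 to 2.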
